A study of Mus musculus with 25 samples.

Results

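The lysosome's digestive enzymes, its proton pump and the transcription factors that control them were followed through 2 white fat depots of the mouse as a set of 40 genes. The set was drawn up as a list of gene names and holds 9 cathepsins, 10 enzymes that degrade sugar chains, 6 genes of lipid handling, 2 acid phosphatases, 3 membrane proteins, 7 subunits of the proton pump and 3 transcription factors. Of these, 6 were listed as enriched in macrophages (Ctss, Ctsc, Ctsz, Ctsk, Atp6v0d2 and Acp5) and 34 as ubiquitous. All 40 were found among the 54752 genes of the count files, and all 40 passed a minimum mean of 1 CPM (read counts scaled to library size) in both depots. RNA was sequenced from epididymal fat (eWAT) of 4 wild type mice on a normal diet (ND), 5 wild type mice on a high-fat diet (HFD) and 5 Acod1-/- mice on HFD, and from inguinal fat (iWAT) of 3, 5 and 3 such mice. All mice were male C57BL/6N. The HFD took 60% of its calories from fat and ran for 16 weeks from the age of 5 weeks, with 17 and 18 weeks given for the libraries iWAT Acod1-/- HFD 2 and 3. The knockout line, C57BL/6N-Acod1em1(IMPC)J/J, lacked Acod1 in all cells and was compared with littermates, and no Acod1-/- library on ND was used here.

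Lysosomes take up proteins, lipids and sugar chains from endocytosis, phagocytosis and autophagy and break them down with hydrolases that need an acid lumen. The acid is made by the vacuolar ATPase, a pump with a membrane sector (V0) that carries protons and a soluble sector (V1) that splits ATP. TFEB, TFE3 and MITF are related transcription factors that switch on lysosomal genes together. In obese fat, macrophages gather around dying adipocytes and degrade their lipid in lysosomes, while adipocytes and the other cells of the tissue hold lysosomes of their own.

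Between 31.41 and 52.34 M reads were counted per library (median 42.09 M), and no pair of libraries of a group was a copy of another. Tbx15 and En1, which mark inguinal fat, summed to 14.3 to 33.8 CPM in iWAT and to at most 0.733 CPM in eWAT, and Wt1, a gene of visceral fat, reached 6.01 to 18.2 CPM in eWAT and at most 0.0516 CPM in iWAT. Acod1 had 0 to 9 reads in every library and 0 to 2 in the Acod1-/- libraries, so its counts could not check the genotype. The library numbers in the column headers begin with 1 of 2 prefixes, shared by 14 and by 11 libraries. These were taken here as a first and a second sequencing series, which the labels do not name. The second holds all ND libraries and 1 library of each of the 4 HFD groups. Diet and series can therefore be told apart only through those 4 libraries. Overlapping coding genes lie at the loci of 13 of the 40, among them Ctsa, Ctsb, Ctsd, Ctsz, Hexa and Lamp1, and whether the counting used strand was not stated. The library eWAT ND 2 held 7676 CPM of epididymis markers (Lcn5, Lcn8, Crisp1 and Adam7) and eWAT Acod1-/- HFD 5 held 1052 CPM, against at most 165 CPM in the other eWAT libraries. The calls that changed without these 2 libraries are therefore named. In iWAT, the 3 ND libraries held 414 to 639 CPM of B cell markers and 200 to 325 CPM of T cell markers, against 2.76 to 42.7 and 3.68 to 53.8 CPM in wild type mice on HFD.

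In eWAT, 28 of the 40 genes were higher and 1, Neu1, was lower on HFD than on ND in wild type mice, where 24.8% of all genes tested were called higher and 26.9% lower (adjusted p under 0.1). In Acod1-/- mice on HFD, 29 of the 40 were lower and 0 higher than in the wild type HFD libraries, against 10.8% and 9.13% of all genes. By edgeR 0 of the 40 were higher also at an unadjusted p under 0.05, and 0 by DESeq2. The median log2 fold change over the 40 genes was 0.86 for diet and -0.71 for genotype, where the median over all genes was -0.038 and 0.044. Every wild type HFD library lay above every ND library for 23 genes (17.2% of all genes), and every Acod1-/- HFD library lay below every wild type HFD library for 14 (4.34% of all genes). The diet and genotype comparisons share the 5 wild type HFD libraries, so the opposite signs are not independent of each other. Changes are given throughout as fitted log2 fold changes ± SE with the adjusted p. In whole tissue, a change in the number of cells of a type cannot be told apart from a change in RNA per cell.

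Without the 2 libraries that held epididymis RNA, 30 genes were higher on HFD in eWAT and 0 lower, with 23.6% of all genes called higher and 23.2% lower. Man2b1, Manba and Sgsh (0.33 ± 0.15, adjusted p = 0.0932) were then also called, while Neu1 and Atp6ap1 (0.32 ± 0.15, adjusted p = 0.121) no longer were. In the genotype comparison 32 were then lower, with 15.4% of all genes called lower. Those gained were Man2b1, Sgsh (-0.52 ± 0.14, adjusted p = 0.0191) and Gaa. From the 2 groups of this comparison only Acod1-/- HFD 5 was left out. That library also held the most macrophage marker RNA of its group (1549 CPM, the others 528 to 933 CPM). It was the only one of its group in the second series, so these features cannot be told apart from its epididymis RNA. With the sequencing series as a term, 24 were higher on HFD in eWAT and 17 in iWAT, against 17.5% and 21.4% of all genes. Among the HFD libraries of the first series alone 31 were lower by genotype in eWAT and 1 (Acp5) higher, against 14.7% and 11.1% of all genes.

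Macrophage RNA moved in the same libraries. The 11 macrophage markers summed to 595 to 993 CPM in ND eWAT, 1547 to 5144 CPM in wild type HFD eWAT and 528 to 1549 CPM in Acod1-/- HFD eWAT, and none of the 11 was at or under 3 counts in a whole group. Of them, 10 were higher on HFD, 1 (Mertk) was lower, and 10 were lower in Acod1-/- mice. The 7 markers of lipid-associated macrophages (such as Trem2 and Gpnmb) summed to 133 to 484, 1742 to 6367 and 171 to 1216 CPM, and all 7 were higher on HFD and lower in Acod1-/- mice. RNA of other cells moved too. The marker counts here stand beside 24.8% of all genes called higher and 26.9% lower on HFD. By genotype 9.13% of all genes were called higher and 10.8% lower. The diet counts of adipocyte markers lie near or below these shares. Fibroblast and progenitor markers summed to 1683 to 2084 CPM on ND, 2839 to 5513 CPM in wild type HFD and 1569 to 3123 CPM in Acod1-/- HFD eWAT, with 5 of 6 higher on HFD and 4 of 6 lower in Acod1-/- mice. Of 5 mast cell markers 4 were higher on HFD and 4 lower in Acod1-/- mice, and of 5 T cell markers 3 were higher and 2 lower. Mast cell markers summed to 12.7 to 30.0, 21.3 to 186 and 17.8 to 33.4 CPM. The wild type HFD libraries 3 and 5, at 26.9 and 21.3 CPM, lay within the ND range. Neutrophil markers summed to 1.29 to 3.93, 23.5 to 51.6 and 3 to 39 CPM, with 1 of the 4 (S100a8) above the minimum level for a test. Endothelial markers went down on HFD (554 to 840 against 258 to 485 CPM, 4 of 4 lower), as did 3 of 4 mesothelial markers, and of 7 adipocyte markers 1 was higher and 2 lower on HFD and 3 higher in Acod1-/- mice. The part of these cells in the lysosomal results was not tested.

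**Figure D1:**
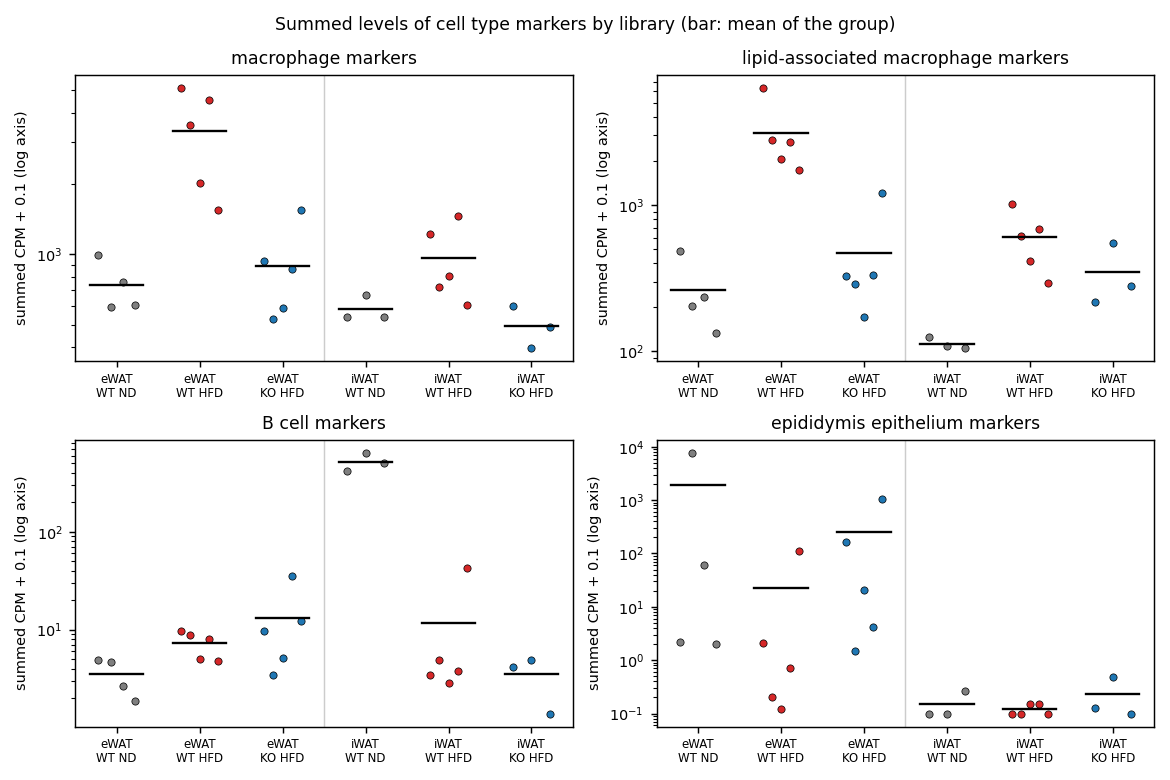
Summed level of macrophage, lipid-associated macrophage, B cell and epididymis markers in each of the 25 libraries (CPM plus 0.1, log axis), by depot and group, with a bar at the group mean. The wild type HFD libraries of eWAT held 1547 to 5144 CPM of macrophage markers, and B cell markers reached 414 to 639 CPM in the ND libraries of iWAT.

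In iWAT, 25 of the 40 genes were higher and 0 lower on HFD in wild type mice, against 25.9% of all genes higher and 24.2% lower. By edgeR 0 were lower also at an unadjusted p under 0.05, and DESeq2 called 1, Tfeb, lower (25.3% of all genes). The median log2 fold change of the 40 was 0.50, beside 0.004 over all genes, and 20 of the 40 lay above all ND libraries in every HFD library (23.0% of all genes). For genotype in iWAT, edgeR called 0 of the 40 and 0 genes at all (0% higher and 0% lower), with 21 of the 40 lower and 0 higher at an unadjusted p under 0.05, against 2468 of all 14801 genes (16.7%) in either direction. The fitted difference was below 0 for 35 of the 40 and the median was -0.43, beside -0.015 over all genes. All Acod1-/- libraries lay below all wild type HFD libraries for 4 genes, Ctsh, Ctss, Ctsz and Tfe3 (4.59% of all genes).

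The iWAT genotype result turned on the test and on single libraries. DESeq2's Wald test called 13 of the 40 lower (4.27% of all genes), and a fit of the HFD libraries of the first sequencing series called 19 (7.84%). Leaving out Acod1-/- HFD 3 gave 16 lower and 1 higher (8.50% and 9.43% of all genes), and leaving out wild type HFD 5 gave 5 lower (0.930%). Macrophage markers in iWAT summed to 537 to 667 CPM on ND, 605 to 1454 CPM in wild type mice on HFD and 396 to 597 CPM in Acod1-/- mice on HFD.

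Other markers moved with diet in iWAT, where 25.9% of all genes were called higher and 24.2% lower on HFD. Of the 11 macrophage markers 8 were higher on HFD in wild type mice, and of the 7 of lipid-associated macrophages 5, with sums of 105 to 125 CPM on ND, 293 to 1025 CPM in wild type HFD and 216 to 553 CPM in Acod1-/- HFD libraries. Fibroblast and progenitor markers went from 870 to 1389 CPM on ND to 2406 to 4670 CPM in wild type HFD (5 of 6 higher) and lay at 2192 to 3139 CPM in Acod1-/- HFD libraries. Adipocyte markers went from 21928 to 26535 CPM on ND to 38412 to 48780 CPM in wild type HFD (4 of 7 higher) and lay at 30815 to 43525 CPM in Acod1-/- HFD libraries. All 4 endothelial markers were higher on HFD, and all B cell, T cell and dendritic cell markers were lower. All 4 skeletal muscle markers were called lower as well, but for 0 of them the groups were apart. Their sums were 6801, 3.04 and 260 CPM in ND 1, 2 and 3, against 17.5 to 272 CPM in wild type HFD. None of the markers was called for genotype in iWAT, and the part of these cells in the lysosomal results was not tested.

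**Figure D2:**
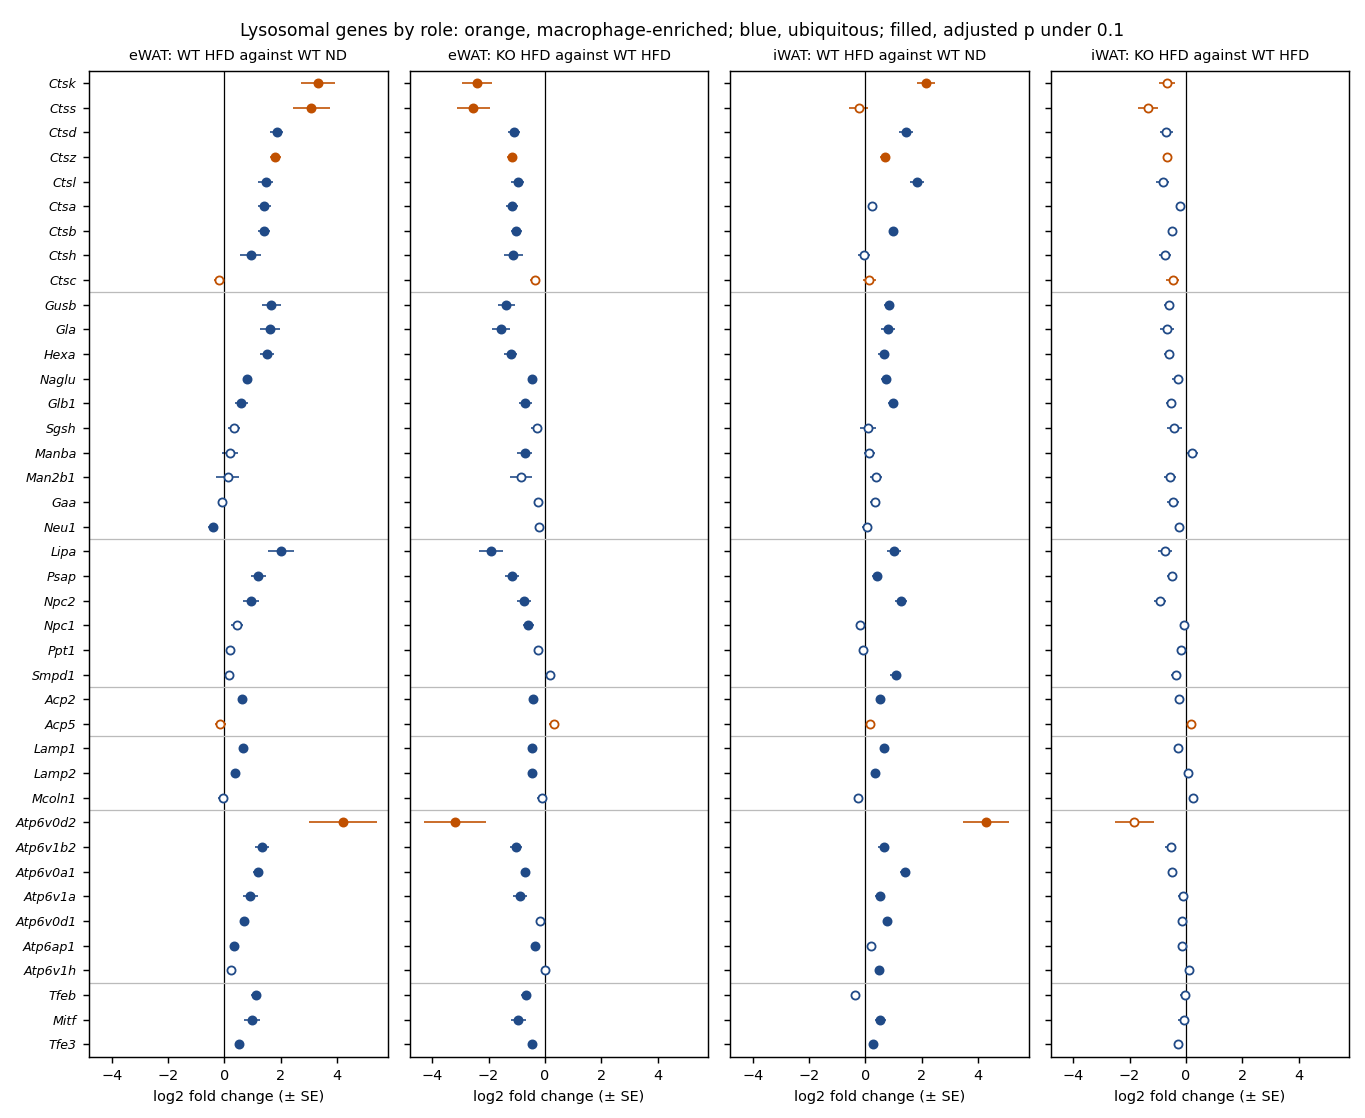
Log2 fold change (± SE) of each of the 40 genes by role for diet and genotype in eWAT and iWAT, with filled points at an adjusted p under 0.1, macrophage-enriched genes in orange and ubiquitous genes in blue. In eWAT 28 genes were called higher on HFD and 29 lower in Acod1-/- mice, and in iWAT 25 were called higher on HFD and none by genotype.

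Together the 40 genes took 0.898% to 1.03% of the counted reads in ND eWAT, 1.51% to 3.01% in wild type HFD eWAT and 0.78% to 1.54% in Acod1-/- HFD eWAT. In iWAT the shares were 0.813% to 0.844%, 0.988% to 1.45% and 0.799% to 1.0%. For 33 of the 40 the highest group mean was that of wild type HFD eWAT, and for 24 the lowest was that of ND iWAT. The same was not counted over all genes, so no share stands beside these counts. The exceptions at the top were Ctsc, Gaa and Neu1 (ND eWAT), Acp5 and Atp6v1h (Acod1-/- HFD iWAT), Smpd1 (wild type HFD iWAT) and Mcoln1 (ND iWAT).

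**Figure D3:**
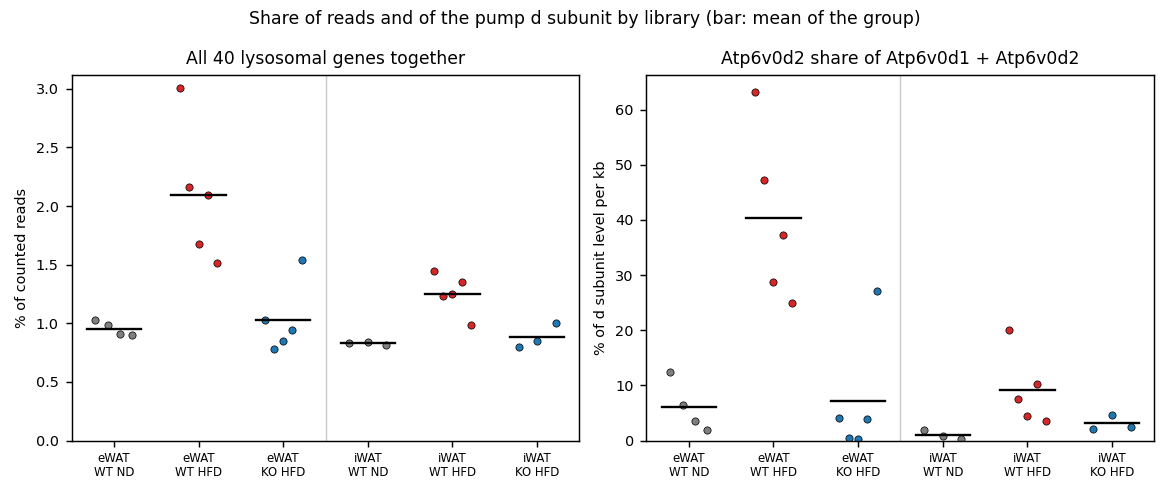
Left, share of counted reads taken by the 40 genes in each library (%), and right, share of Atp6v0d2 in the summed level per kb of both d subunits of the proton pump (%), by depot and group with a bar at the mean. Wild type HFD eWAT lay at 1.51% to 3.01% of reads and at 25% to 63.2% of the d subunit.

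The 6 macrophage-enriched genes did not move as 1 block. In eWAT, 4 of them rose on HFD and fell in Acod1-/- mice, with a median log2 fold change over all 6 of 2.45 and -1.79. For the 34 ubiquitous genes the counts were 24 higher and 25 lower, with medians of 0.75 and -0.70. The 4 were Ctss, Ctsk, Ctsz and Atp6v0d2, while Ctsc and Acp5 passed neither test. In iWAT 3 of the 6 and 22 of the 34 rose on HFD, with medians of 0.42 and 0.50. Of all genes tested, 24.8% were higher on HFD and 10.8% lower by genotype in eWAT, and 25.9% were higher on HFD in iWAT. The difference between the classes was not tested.

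Ctss encodes cathepsin S, a cysteine protease that trims the invariant chain of MHC class II molecules in antigen-presenting cells, and lies on chromosome 3 (95526786 to 95556403, GRCm38). Ctss was at 122, 50.4, 51.8 and 31.6 CPM in eWAT on ND, at 976, 539, 374, 542 and 282 CPM in the wild type HFD libraries and at 71.6, 35, 29.3, 72.4 and 259 CPM in the Acod1-/- HFD libraries. All 5 wild type HFD libraries were above all others of the depot, and Acod1-/- HFD 5, at 259 CPM, stood apart from the rest of its group. The log2 fold change was 3.09 ± 0.66 (adjusted p = 0.00295) for diet and -2.54 ± 0.59 (adjusted p = 0.0174) for genotype. For Ctss in iWAT the values were 112, 165 and 115 CPM on ND, 191, 83.1, 67, 141 and 62 CPM in wild type HFD and 35.8, 52.1 and 43.2 CPM in Acod1-/- HFD libraries. Here the ND libraries lay within the range of wild type HFD, and the Acod1-/- libraries lay below every other library. Diet gave -0.24 ± 0.34 (adjusted p = 0.601) and genotype -1.34 ± 0.36 (adjusted p = 0.146), and the diet effect was larger in eWAT than in iWAT by 3.35 ± 0.78 (adjusted p = 0.00394). B and dendritic cell markers, whose cells also use cathepsin S, were lower on HFD in iWAT, with median log2 fold changes of -5.56 and -3.46. T cell markers were lower too (-3.93), and the part of these cells in the level of Ctss was not tested.

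Ctsk, the collagen-cleaving protease known from osteoclasts, lies 17423 bases before Ctss on the same chromosome (95499256 to 95509362). Ctsk was at 33.6, 20, 20.6 and 16.7 CPM in eWAT on ND, at 484, 221, 120, 198 and 114 CPM in the wild type HFD libraries and at 46.3, 19.5, 21.6, 18.4 and 107 CPM in the Acod1-/- HFD libraries. Wild type HFD 1 was the highest and no wild type HFD library overlapped another group. Ctsk rose by 3.32 ± 0.61 (adjusted p = 0.00134) on HFD and fell in Acod1-/- mice (-2.42 ± 0.54, adjusted p = 0.0157). For Ctsk in iWAT the values were 28.3, 19.5 and 16.5 CPM on ND, 151, 83.1, 71.9, 104 and 51.5 CPM in wild type HFD and 56.5, 63.3 and 57.3 CPM in Acod1-/- HFD libraries. Both HFD groups were above ND and overlapped each other, with 2.14 ± 0.32 (adjusted p = 0.00052) for diet and -0.67 ± 0.29 (adjusted p = 0.287) for genotype.

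Ctsz, a carboxypeptidase of macrophages and other cells, had the smallest adjusted p of the 40 for diet in eWAT. Ctsz was at 173, 110, 165 and 128 CPM in eWAT on ND, at 662, 457, 429, 548 and 435 CPM in the wild type HFD libraries and at 203, 206, 170, 240 and 309 CPM in the Acod1-/- HFD libraries. No library of wild type mice on HFD overlapped those of the other groups. The changes were 1.81 ± 0.20 (adjusted p = 0.000167) for diet and -1.17 ± 0.19 (adjusted p = 0.011) for genotype. For Ctsz in iWAT the values were 152, 157 and 194 CPM on ND, 305, 298, 230, 278 and 206 CPM in wild type HFD and 189, 145 and 170 CPM in Acod1-/- HFD libraries. It was higher on HFD there as well (0.68 ± 0.16, adjusted p = 0.00655), and the Acod1-/- libraries all lay below the wild type HFD libraries without passing the test (-0.67 ± 0.16, adjusted p = 0.137). The diet effect was larger in eWAT by 1.16 ± 0.26 (adjusted p = 0.00311).

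Atp6v0d2 encodes the d subunit form of the pump's V0 sector found in osteoclasts and macrophages (chromosome 4, 19876841 to 19922605). Atp6v0d2 was at 22.7, 9.62, 5.89 and 3.1 CPM in eWAT on ND, at 402, 202, 103, 163 and 84.2 CPM in the wild type HFD libraries and at 9.63, 1.31, 0.464, 8.92 and 83 CPM in the Acod1-/- HFD libraries. Wild type HFD libraries lay above all others, and Acod1-/- HFD 5, at 83 CPM, came next below the lowest of them. It had the largest diet effect of the 40 in eWAT, 4.21 ± 1.2 (adjusted p = 0.0146), and fell by genotype (-3.20 ± 1.1, adjusted p = 0.0642). Without the 2 libraries that held epididymis RNA, and so without Acod1-/- HFD 5, the genotype difference was -5.23 ± 0.94 (adjusted p = 0.00295). For Atp6v0d2 in iWAT the values were 2.35, 1.07 and 0.296 CPM on ND, 52.5, 19.8, 11.3, 27.1 and 7.26 CPM in wild type HFD and 4.38, 10.2 and 5.57 CPM in Acod1-/- HFD libraries. Every HFD library of both genotypes was above ND iWAT, and the genotypes overlapped (4.28 ± 0.81, adjusted p = 0.00192 for diet, -1.83 ± 0.70, adjusted p = 0.225 for genotype).

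Ctsc encodes cathepsin C, which activates the serine proteases of immune cell granules. Ctsc was at 162, 190, 214 and 218 CPM in eWAT on ND, at 180, 166, 152, 251 and 115 CPM in the wild type HFD libraries and at 165, 104, 148, 127 and 139 CPM in the Acod1-/- HFD libraries. The groups overlapped and neither test passed (-0.18 ± 0.19, adjusted p = 0.47 for diet, -0.34 ± 0.18, adjusted p = 0.239 for genotype). For Ctsc in iWAT the values were 98.3, 121 and 77.9 CPM on ND, 93.8, 74.9, 118, 160 and 87.8 CPM in wild type HFD and 89.9, 71.7 and 73.2 CPM in Acod1-/- HFD libraries. Nothing was called there either (0.14 ± 0.23, adjusted p = 0.645 and -0.47 ± 0.23, adjusted p = 0.337). Acp5 encodes the tartrate-resistant acid phosphatase of osteoclasts and activated macrophages. Acp5 was at 305, 267, 342 and 383 CPM in eWAT on ND, at 201, 240, 351, 294 and 386 CPM in the wild type HFD libraries and at 410, 436, 355, 349 and 298 CPM in the Acod1-/- HFD libraries. The lowest level, 201 CPM, was that of wild type HFD 1, the eWAT library with the most macrophage marker RNA (5144 CPM). Its log2 fold change was -0.14 ± 0.19 (adjusted p = 0.571) for diet and 0.33 ± 0.18 (adjusted p = 0.239) for genotype. For Acp5 in iWAT the values were 342, 423 and 389 CPM on ND, 366, 522, 453, 387 and 386 CPM in wild type HFD and 590, 437 and 445 CPM in Acod1-/- HFD libraries. All groups overlapped except that Acod1-/- libraries lay above ND (0.17 ± 0.15, adjusted p = 0.399 for diet and 0.19 ± 0.15, adjusted p = 0.56 for genotype). Acp5 was lower in eWAT than in iWAT on HFD, as the only one of the 40 (-0.52 ± 0.16, adjusted p = 0.0359).

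**Figure D4:**
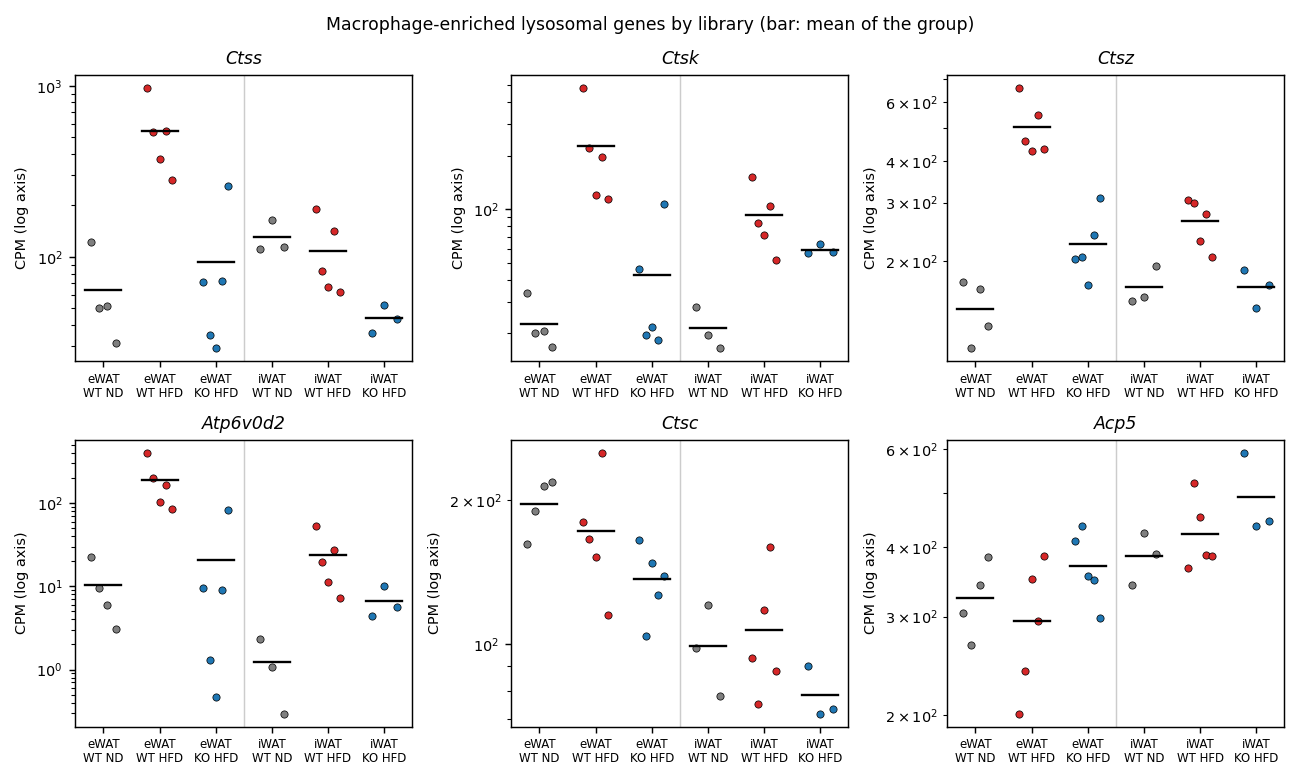
CPM (log axis) of the 6 macrophage-enriched genes in each library by depot and group, with a bar at the group mean. In eWAT, every wild type HFD library lay above the other groups for Ctss, Ctsk, Ctsz and Atp6v0d2, while Acp5 stayed between 201 and 590 CPM in all 25 libraries.

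Of the 9 cathepsins, 8 rose on HFD in eWAT and 8 fell in Acod1-/- mice, and 5 rose on HFD in iWAT. These and the following counts by role stand beside 24.8%, 10.8% and 25.9% of all genes called in the same direction. The ubiquitous ones were led by Ctsa, Ctsb, Ctsd and Ctsl. Ctsd, the main aspartic protease of lysosomes, had the largest diet effect among them in eWAT. Ctsd was at 466, 342, 466 and 560 CPM in eWAT on ND, at 2308, 1388, 1464, 1833 and 1242 CPM in the wild type HFD libraries and at 786, 930, 524, 599 and 1012 CPM in the Acod1-/- HFD libraries. Each wild type HFD library was above each library of the other groups, and Acod1-/- libraries lay mostly above ND. The log2 fold change was 1.85 ± 0.24 (adjusted p = 0.000282) for diet, -1.10 ± 0.22 (adjusted p = 0.0121) for genotype and 0.75 ± 0.23 (adjusted p = 0.0437) for Acod1-/- HFD against ND. For Ctsd in iWAT the values were 297, 356 and 485 CPM on ND, 1138, 1202, 1028, 1097 and 605 CPM in wild type HFD and 528, 736 and 640 CPM in Acod1-/- HFD libraries. All 5 wild type HFD libraries lay above ND (1.44 ± 0.24, adjusted p = 0.00108), and with wild type HFD 5 between the Acod1-/- values the genotypes overlapped (-0.70 ± 0.24, adjusted p = 0.189).

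Ctsb, a cysteine protease with both endopeptidase and dipeptidase activity, ranked second of the 40 per kb of transcript in every group, behind Psap. Ctsb was at 1761, 1327, 1748 and 1684 CPM in eWAT on ND, at 6035, 4345, 3367, 4533 and 3266 CPM in the wild type HFD libraries and at 2013, 1959, 1816, 1888 and 2999 CPM in the Acod1-/- HFD libraries. The highest Acod1-/- value stayed below the lowest of wild type HFD. Ctsb changed by 1.40 ± 0.21 (adjusted p = 0.00052) on HFD and by -1.01 ± 0.19 (adjusted p = 0.0113) with genotype. For Ctsb in iWAT the values were 1347, 1349 and 1441 CPM on ND, 2902, 2825, 2689, 2932 and 2070 CPM in wild type HFD and 1718, 1702 and 2431 CPM in Acod1-/- HFD libraries. It was higher in all HFD libraries than on ND (0.99 ± 0.17, adjusted p = 0.00128), and wild type HFD 5 was the lowest of its group, below the Acod1-/- library 3 (-0.48 ± 0.17, adjusted p = 0.202 for genotype).

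Ctsl, another cysteine protease, had one of the smallest adjusted p for diet in iWAT. Ctsl was at 535, 376, 480 and 437 CPM in eWAT on ND, at 1690, 1126, 1095, 1227 and 1129 CPM in the wild type HFD libraries and at 643, 494, 433, 543 and 1092 CPM in the Acod1-/- HFD libraries. Wild type HFD libraries were above all others, by a small margin over Acod1-/- HFD 5. The differences were 1.46 ± 0.25 (adjusted p = 0.000929) for diet and -0.97 ± 0.23 (adjusted p = 0.0192) for genotype. For Ctsl in iWAT the values were 284, 226 and 263 CPM on ND, 1072, 1053, 783, 946 and 594 CPM in wild type HFD and 435, 422 and 674 CPM in Acod1-/- HFD libraries. Diet gave 1.82 ± 0.24 (adjusted p = 0.000282) there with no overlap, and genotype -0.82 ± 0.23 (adjusted p = 0.153).

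Ctsa, the protective protein that holds NEU1 and GLB1 in a complex, was among the 3 genes with the smallest adjusted p for genotype in eWAT. Ctsa was at 145, 105, 123 and 113 CPM in eWAT on ND, at 537, 328, 228, 311 and 214 CPM in the wild type HFD libraries and at 145, 145, 138, 124 and 163 CPM in the Acod1-/- HFD libraries. ND and Acod1-/- libraries overlapped and wild type HFD libraries stood above both. It rose by 1.42 ± 0.23 (adjusted p = 0.000716) on HFD and fell by genotype (-1.18 ± 0.21, adjusted p = 0.011). For Ctsa in iWAT the values were 109, 130 and 113 CPM on ND, 158, 133, 124, 139 and 115 CPM in wild type HFD and 121, 114 and 116 CPM in Acod1-/- HFD libraries. In this depot the groups overlapped (0.22 ± 0.11, adjusted p = 0.138 for diet and -0.22 ± 0.11, adjusted p = 0.365 for genotype), and the diet effect was larger in eWAT by 1.23 ± 0.27 (adjusted p = 0.00287). The remaining member, Ctsh, an aminopeptidase, rose on HFD in eWAT (0.93 ± 0.37, adjusted p = 0.0565) and fell in Acod1-/- mice (-1.12 ± 0.35, adjusted p = 0.0515), although ND 2, with its epididymis RNA, was at 87.5 CPM and the other ND libraries at 38.4 to 51.5 CPM.

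Among the 10 enzymes that degrade sugar chains, 5 rose and 1 fell on HFD in eWAT, 6 fell in Acod1-/- mice, and 5 rose on HFD in iWAT. Gusb, the beta-glucuronidase that degrades glycosaminoglycans, and Hexa, a subunit of beta-hexosaminidase, had the larger changes together with Gla. Gusb was at 83.7, 70.6, 68.3 and 64.8 CPM in eWAT on ND, at 390, 249, 145, 229 and 129 CPM in the wild type HFD libraries and at 89.7, 70.8, 54.1, 76.9 and 148 CPM in the Acod1-/- HFD libraries. Acod1-/- HFD 5 reached into the wild type HFD range and no other library of its group did. Gusb differed by 1.67 ± 0.33 (adjusted p = 0.0019) for diet and -1.38 ± 0.30 (adjusted p = 0.0149) for genotype. For Gusb in iWAT the values were 57, 60.4 and 52.6 CPM on ND, 113, 93.1, 98.3, 109 and 82 CPM in wild type HFD and 58.3, 53.4 and 84.6 CPM in Acod1-/- HFD libraries. All wild type HFD libraries but the lowest exceeded the Acod1-/- libraries, and all exceeded ND (0.84 ± 0.17, adjusted p = 0.00258 for diet, -0.61 ± 0.17, adjusted p = 0.146 for genotype).

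Hexa was at 127, 107, 125 and 133 CPM in eWAT on ND, at 507, 344, 251, 427 and 218 CPM in the wild type HFD libraries and at 157, 124, 117, 149 and 205 CPM in the Acod1-/- HFD libraries. No wild type HFD library overlapped the other groups. Hexa rose by 1.51 ± 0.24 (adjusted p = 0.00063) on HFD and fell with genotype (-1.22 ± 0.22, adjusted p = 0.011). For Hexa in iWAT the values were 85.9, 94.3 and 105 CPM on ND, 173, 131, 144, 173 and 105 CPM in wild type HFD and 115, 77.6 and 96.2 CPM in Acod1-/- HFD libraries. HFD wild type libraries reached down to the highest ND value, and passed the diet test (0.64 ± 0.18, adjusted p = 0.0166), but not that of genotype (-0.61 ± 0.18, adjusted p = 0.157). Its diet effect was larger in eWAT by 0.90 ± 0.31 (adjusted p = 0.0415). Gla, the alpha-galactosidase that removes galactose from globosides, changed by 1.61 ± 0.36 (adjusted p = 0.00359) for diet and -1.56 ± 0.33 (adjusted p = 0.0139) for genotype in eWAT and by 0.79 ± 0.25 (adjusted p = 0.0261) for diet in iWAT.

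Neu1, the sialidase that removes terminal sialic acid, was the exception. Neu1 was at 44.9, 80.1, 54.9 and 47.4 CPM in eWAT on ND, at 55.8, 43.9, 40.8, 37 and 37.8 CPM in the wild type HFD libraries and at 40.9, 28.6, 40.8, 37.6 and 39.8 CPM in the Acod1-/- HFD libraries. ND 2 was the highest of all and the other 3 ND libraries lay within the wild type HFD range. Neu1 fell by 0.40 on the log2 scale with HFD in eWAT (SE 0.18, adjusted p = 0.0834), and without the 2 libraries that held epididymis RNA the difference was -0.18 ± 0.16 (adjusted p = 0.401). For Neu1 in iWAT the values were 39.3, 38.6 and 40.7 CPM on ND, 51.6, 37.2, 45.4, 33.6 and 32.4 CPM in wild type HFD and 37.2, 37.8 and 28.7 CPM in Acod1-/- HFD libraries. The wild type groups overlapped (0.05 ± 0.16, adjusted p = 0.829 for diet and -0.24 ± 0.16, adjusted p = 0.476 for genotype).

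The fitted changes of Man2b1, Manba and Glb1, which trim mannose and galactose from glycans, moved when the libraries with epididymis RNA were left out. The part of the epididymis RNA in this was not tested. Man2b1 was at 391 CPM in ND 2 and at 108 to 146 CPM in the other ND libraries. Its log2 fold change was 0.12 ± 0.41 (adjusted p = 0.825) for diet and -0.85 ± 0.39 (adjusted p = 0.17) for genotype with these libraries, and 0.77 ± 0.25 (adjusted p = 0.0312) and -1.20 ± 0.23 (adjusted p = 0.00457) without them. Manba went from 0.21 ± 0.28 (adjusted p = 0.559) to 0.54 ± 0.23 (adjusted p = 0.0875) for diet, and for Glb1 the diet value was 0.60 ± 0.24 (adjusted p = 0.0548) with them and 0.95 ± 0.15 (adjusted p = 0.000892) without. Of the others, Naglu, a heparan sulfate enzyme, rose in both depots (0.80 ± 0.15, adjusted p = 0.00161 in eWAT and 0.73 ± 0.19, adjusted p = 0.0115 in iWAT), while Gaa, which digests glycogen, and Sgsh, a sulfatase for heparan sulfate, were not called for diet or genotype in either depot with all libraries.

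Of the 6 genes of lipid handling, 3 rose on HFD in eWAT (Lipa, Npc2 and Psap), 4 fell in Acod1-/- mice (these and Npc1), and 4 rose on HFD in iWAT (Lipa, Npc2, Psap and Smpd1). Lipa encodes lysosomal acid lipase, which frees fatty acids and cholesterol from stored esters (chromosome 19, 34492318 to 34527474). Lipa was at 109, 76.6, 70 and 68.3 CPM in eWAT on ND, at 535, 393, 186, 333 and 167 CPM in the wild type HFD libraries and at 72.6, 46, 49, 56.5 and 206 CPM in the Acod1-/- HFD libraries. Wild type HFD libraries spread from 167 to 535 CPM and all lay above ND, and of the Acod1-/- libraries only number 5 reached that range. The log2 fold change was 2.0 ± 0.47 (adjusted p = 0.00509) for diet and -1.91 ± 0.43 (adjusted p = 0.0168) for genotype. For Lipa in iWAT the values were 53.7, 48.4 and 49.4 CPM on ND, 133, 81.4, 97, 124 and 67.7 CPM in wild type HFD and 53.4, 44.8 and 81.3 CPM in Acod1-/- HFD libraries. Every wild type HFD library lay above ND (1.02 ± 0.25, adjusted p = 0.00749), and genotype did not pass (-0.76 ± 0.25, adjusted p = 0.173).

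Npc2 carries cholesterol from lipoproteins to the membrane protein NPC1 for export from the lysosome. Npc2 was at 817, 1603, 876 and 959 CPM in eWAT on ND, at 1436, 1950, 2348, 2638 and 1800 CPM in the wild type HFD libraries and at 1341, 826, 909, 1041 and 1975 CPM in the Acod1-/- HFD libraries. ND 2 lay within the range of wild type HFD, far above the other 3 ND libraries. The changes were 0.94 ± 0.28 (adjusted p = 0.0174) for diet and -0.74 ± 0.26 (adjusted p = 0.0804) for genotype. Without both libraries that held epididymis RNA they were 1.21 ± 0.22 (adjusted p = 0.00169) and -0.99 ± 0.19 (adjusted p = 0.00462). For Npc2 in iWAT the values were 589, 611 and 639 CPM on ND, 1466, 1478, 1665, 1648 and 989 CPM in wild type HFD and 693, 592 and 1024 CPM in Acod1-/- HFD libraries. HFD wild type libraries were above all ND libraries (1.27 ± 0.22, adjusted p = 0.00117) and overlapped those of Acod1-/- mice (-0.93 ± 0.21, adjusted p = 0.137).

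Psap, the precursor of the saposins that help enzymes reach sphingolipids, had the highest level per kb of the 40 in every group. Psap was at 2147, 1574, 2012 and 1807 CPM in eWAT on ND, at 6613, 4580, 3359, 3987 and 3068 CPM in the wild type HFD libraries and at 1980, 1452, 1668, 1531 and 2983 CPM in the Acod1-/- HFD libraries. The wild type HFD libraries stood above the other groups. Psap rose by 1.20 ± 0.26 (adjusted p = 0.00304) and fell by genotype (-1.17 ± 0.24, adjusted p = 0.0129). For Psap in iWAT the values were 1810, 1790 and 1952 CPM on ND, 2998, 2205, 2324, 2603 and 1887 CPM in wild type HFD and 1406, 1736 and 2000 CPM in Acod1-/- HFD libraries. The groups overlapped, and diet passed the test (0.41 ± 0.17, adjusted p = 0.0796) while genotype did not (-0.51 ± 0.17, adjusted p = 0.192). The diet call of Psap in iWAT held in 8 of 19 alternatives, 5 of the 11 with a library left out among them. For Npc1 the genotype difference in eWAT was -0.59 ± 0.20 (adjusted p = 0.0714) and that of diet 0.44 ± 0.22 (adjusted p = 0.112).

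Smpd1, acid sphingomyelinase, went another way from the rest. In eWAT it was at 63.4 to 81.9 CPM on ND, 54.6 to 103 CPM in wild type HFD and 85.4 to 103 CPM in Acod1-/- HFD (0.15 ± 0.15, adjusted p = 0.45 for diet and 0.18 ± 0.14, adjusted p = 0.43 for genotype). In iWAT it went from 49 to 51.5 CPM on ND to 89.2 to 116 CPM on HFD in wild type mice (1.07 ± 0.19, adjusted p = 0.00131). The diet effect was smaller in eWAT than in iWAT, with a difference of -0.89 ± 0.23 (adjusted p = 0.00909). Ppt1, which removes fatty acids from proteins, was not called for diet or genotype in either depot.

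Of the 2 acid phosphatases, Acp2, which is found in most cells, rose on HFD in eWAT (0.63 ± 0.14, adjusted p = 0.00336) and in iWAT (0.50 ± 0.12, adjusted p = 0.00658) and fell in Acod1-/- eWAT (-0.42 ± 0.13, adjusted p = 0.0504). Acp5 passed none of these tests.

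**Figure D5:**
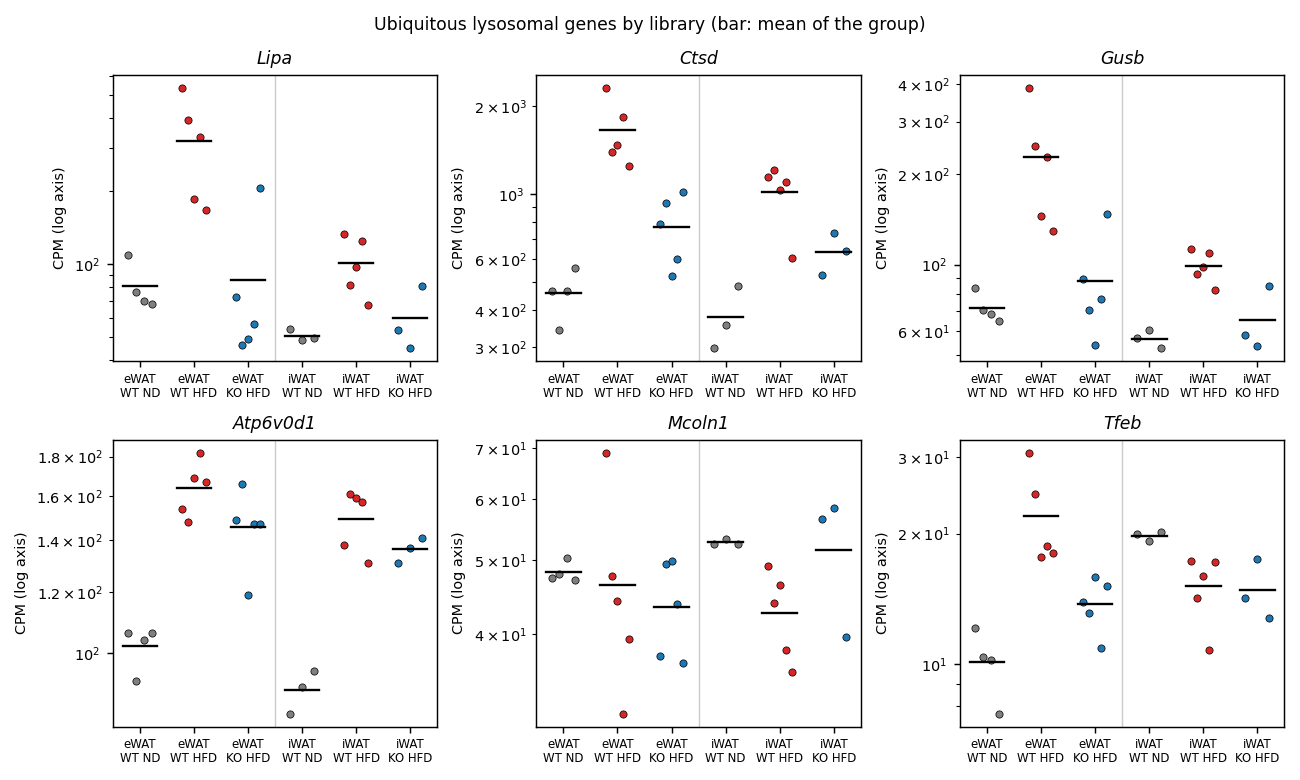
CPM (log axis) of 6 ubiquitous genes, Lipa, Ctsd, Gusb, Atp6v0d1, Mcoln1 and Tfeb, in each library by depot and group, with a bar at the group mean. Atp6v0d1 lay at 119 to 166 CPM in Acod1-/- and at 131 to 182 CPM in wild type mice on HFD over both depots, above 83.4 to 106 CPM on ND, and Mcoln1 showed no such step.

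Of the 3 membrane proteins, Lamp1 and Lamp2, the heavily glycosylated proteins that coat the inside of the lysosomal membrane, rose on HFD in both depots and fell in Acod1-/- eWAT. Lamp1 was at 535, 634, 601 and 631 CPM in eWAT on ND, at 1083, 901, 910, 1148 and 740 CPM in the wild type HFD libraries and at 655, 722, 598, 659 and 813 CPM in the Acod1-/- HFD libraries. ND and Acod1-/- values overlapped, and the lowest wild type HFD value was above all ND values. Lamp1 changed by 0.67 ± 0.14 (adjusted p = 0.00263) on HFD and -0.47 ± 0.13 (adjusted p = 0.0346) with genotype. For Lamp1 in iWAT the values were 454, 462 and 486 CPM on ND, 762, 678, 729, 803 and 584 CPM in wild type HFD and 512, 594 and 648 CPM in Acod1-/- HFD libraries. Wild type HFD libraries were again above ND (0.64 ± 0.13, adjusted p = 0.00345) and overlapped Acod1-/- (-0.30 ± 0.13, adjusted p = 0.284). Lamp2 rose by 0.39 ± 0.14 (adjusted p = 0.0405) in eWAT and 0.33 ± 0.12 (adjusted p = 0.0444) in iWAT.

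Mcoln1 encodes the calcium channel TRPML1. Mcoln1 was at 47.4, 47.9, 50.3 and 47 CPM in eWAT on ND, at 69, 47.6, 44.2, 31.5 and 39.4 CPM in the wild type HFD libraries and at 37.4, 49.4, 49.9, 43.8 and 36.7 CPM in the Acod1-/- HFD libraries. Wild type HFD spanned the whole range of the other groups, and neither -0.05 ± 0.18 (adjusted p = 0.826) for diet nor -0.10 ± 0.17 (adjusted p = 0.748) for genotype passed. For Mcoln1 in iWAT the values were 52.4, 53.3 and 52.4 CPM on ND, 49.1, 43.9, 46.3, 38.1 and 35.7 CPM in wild type HFD and 56.6, 58.4 and 39.6 CPM in Acod1-/- HFD libraries. All wild type HFD values were below the ND values without passing the test (-0.28 ± 0.14, adjusted p = 0.125), and genotype gave 0.25 ± 0.14 (adjusted p = 0.389).

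Of the 7 pump genes, 6 rose on HFD in eWAT, 5 fell in Acod1-/- eWAT and 6 rose on HFD in iWAT. Atp6v0d1, the ubiquitous form of the d subunit, differed from Atp6v0d2. Atp6v0d1 was at 106, 91.9, 104 and 106 CPM in eWAT on ND, at 154, 148, 169, 182 and 167 CPM in the wild type HFD libraries and at 149, 166, 119, 147 and 147 CPM in the Acod1-/- HFD libraries. Both HFD groups lay above ND and overlapped each other. It rose by 0.69 ± 0.11 (adjusted p = 0.000566) on HFD in wild type mice and by 0.52 ± 0.11 (adjusted p = 0.0119) in Acod1-/- HFD against ND, and genotype was not called (-0.17 ± 0.098, adjusted p = 0.258). For Atp6v0d1 in iWAT the values were 83.4, 90.2 and 94.6 CPM on ND, 138, 161, 159, 157 and 131 CPM in wild type HFD and 131, 137 and 141 CPM in Acod1-/- HFD libraries. The same order held in iWAT (0.77 ± 0.11, adjusted p = 0.000377 for diet, 0.62 ± 0.12, adjusted p = 0.00297 for Acod1-/- HFD against ND and -0.15 ± 0.10, adjusted p = 0.499 for genotype).

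Per kb of transcript, Atp6v0d2 made up 1.9% to 12.4% of both d subunits together in ND eWAT, 25% to 63.2% in wild type HFD eWAT and 0.258% to 27.1% in Acod1-/- HFD eWAT. In iWAT the shares were 0.206% to 1.83%, 3.52% to 20.1% and 2.16% to 4.67%. In eWAT only Acod1-/- HFD 5 reached the wild type HFD range.

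Atp6v0a1, the a subunit of V0 that forms the proton path with the c ring, rose in both depots. Atp6v0a1 was at 135, 106, 108 and 101 CPM in eWAT on ND, at 288, 247, 232, 248 and 255 CPM in the wild type HFD libraries and at 145, 134, 126, 141 and 230 CPM in the Acod1-/- HFD libraries. Acod1-/- HFD 5, at 230 CPM, came just below the lowest wild type HFD library and the other 4 lay at 126 to 145 CPM. The changes were 1.18 ± 0.17 (adjusted p = 0.000394) for diet and -0.71 ± 0.15 (adjusted p = 0.0145) for genotype. For Atp6v0a1 in iWAT the values were 67.5, 55.4 and 69.3 CPM on ND, 158, 159, 169, 198 and 144 CPM in wild type HFD and 107, 101 and 151 CPM in Acod1-/- HFD libraries. Its diet effect had the smallest adjusted p of the 40 in iWAT (1.40 ± 0.17, adjusted p = 0.000195). Acod1-/- HFD libraries also lay above ND (0.92 ± 0.18, adjusted p = 0.00411) and overlapped wild type HFD (-0.48 ± 0.16, adjusted p = 0.189).

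Atp6v1a encodes the catalytic subunit of V1, where ATP is split. Atp6v1a was at 118, 93.9, 103 and 125 CPM in eWAT on ND, at 335, 213, 154, 208 and 135 CPM in the wild type HFD libraries and at 107, 98, 78.9, 97.2 and 178 CPM in the Acod1-/- HFD libraries. The wild type HFD libraries were above ND and Acod1-/- HFD 5 lay within their range. Atp6v1a rose by 0.92 ± 0.27 (adjusted p = 0.0141) on HFD and fell by genotype (-0.90 ± 0.25, adjusted p = 0.034). For Atp6v1a in iWAT the values were 85.4, 80.6 and 96 CPM on ND, 123, 111, 124, 146 and 100 CPM in wild type HFD and 82.3, 134 and 126 CPM in Acod1-/- HFD libraries. Here wild type and Acod1-/- HFD libraries overlapped (0.50 ± 0.17, adjusted p = 0.0391 for diet and -0.10 ± 0.17, adjusted p = 0.814 for genotype). Atp6v1b2, the B subunit beside it, changed by 1.33 ± 0.24 (adjusted p = 0.00128) and -1.03 ± 0.22 (adjusted p = 0.0148) in eWAT, and the accessory subunit Atp6ap1 by 0.35 ± 0.13 (adjusted p = 0.0482, lost without the 2 libraries that held epididymis RNA) and -0.37 ± 0.12 (adjusted p = 0.0673). Atp6v1h, the H subunit of V1, was not called in eWAT (0.23 ± 0.13, adjusted p = 0.182) and rose in iWAT (0.49 ± 0.13, adjusted p = 0.00971).

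All 3 transcription factors rose on HFD in eWAT and fell in Acod1-/- eWAT. Tfeb was at 12.1, 10.4, 10.2 and 7.69 CPM in eWAT on ND, at 30.7, 24.7, 17.7, 18.7 and 18 CPM in the wild type HFD libraries and at 13.9, 13.1, 15.9, 10.9 and 15.1 CPM in the Acod1-/- HFD libraries. Every wild type HFD library lay above every other one. Tfeb changed by 1.12 ± 0.19 (adjusted p = 0.000974) on HFD and by -0.67 ± 0.18 (adjusted p = 0.03) with genotype. For Tfeb in iWAT the values were 19.9, 19.2 and 20.2 CPM on ND, 17.3, 14.2, 16, 10.8 and 17.2 CPM in wild type HFD and 14.2, 17.5 and 12.8 CPM in Acod1-/- HFD libraries. In iWAT the order was turned, with all ND libraries above all HFD libraries, although the test did not pass (-0.36 ± 0.17, adjusted p = 0.108 for diet and -0.05 ± 0.17, adjusted p = 0.922 for genotype). The diet effect differed between the depots by 1.51 ± 0.26 (adjusted p = 0.00034), and on ND Tfeb was lower in eWAT than in iWAT (-0.97 ± 0.20, adjusted p = 0.00135). The ND libraries of iWAT held lymphocyte RNA, and its part in the Tfeb level there was not tested.

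Tfe3 was at 36.1, 29.9, 36.2 and 38.1 CPM in eWAT on ND, at 57.7, 50.3, 51.3, 49.4 and 42.7 CPM in the wild type HFD libraries and at 37.4, 40.8, 31.8, 33.1 and 39.5 CPM in the Acod1-/- HFD libraries. Its wild type HFD values did not overlap the other groups. The changes of Tfe3 were small, 0.52 ± 0.11 (adjusted p = 0.00314) for diet and -0.46 ± 0.11 (adjusted p = 0.0168) for genotype. For Tfe3 in iWAT the values were 37.4, 32 and 40.6 CPM on ND, 39.6, 42.6, 47.2, 48.9 and 38.9 CPM in wild type HFD and 38.4, 37.7 and 31.8 CPM in Acod1-/- HFD libraries. The diet test passed with overlapping groups (0.28 ± 0.12, adjusted p = 0.0896), and genotype did not pass although the groups were apart (-0.30 ± 0.12, adjusted p = 0.249). The diet call of Tfe3 in iWAT held in 4 of 19 alternatives, all of them among the 11 with a library left out. Mitf was at 22.5, 17.1, 16.2 and 23 CPM in eWAT on ND, at 61.2, 49.1, 27, 33.9 and 24 CPM in the wild type HFD libraries and at 20.1, 11.2, 23.5, 21.2 and 25.2 CPM in the Acod1-/- HFD libraries. Acod1-/- HFD 5 was above the lowest wild type HFD library and the other 4 below it. Mitf differed by 0.99 ± 0.28 (adjusted p = 0.0139) for diet and -0.95 ± 0.27 (adjusted p = 0.0357) for genotype. For Mitf in iWAT the values were 16.5, 13.4 and 12.6 CPM on ND, 25.5, 18.1, 22.9, 17.6 and 16 CPM in wild type HFD and 24, 16.2 and 17.5 CPM in Acod1-/- HFD libraries. Diet passed in iWAT as well (0.53 ± 0.19, adjusted p = 0.043), and genotype gave -0.08 ± 0.19 (adjusted p = 0.873).

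TFEB and its relatives are known to bind a short palindrome in promoters of lysosomal genes. The letters TCACGTG were searched on both strands in RefSeq promoter windows (GRCm38.p6, 250 bases before to 50 after each start), which were given for 34 of the 40 genes. They were found for 11 of the 34 genes, in 25.6% of the members' windows and in 4.39% of the windows of protein-coding genes. The longer TCACGTGA, which overlaps these matches, was found for 6 genes and in 1.23% of protein-coding windows. None of the 5 macrophage-enriched genes with a window held TCACGTG. Shown is a stretch of 100 bases out of the 250 before the start, 5′ to 3′ on the gene's strand with the matches in capitals, for Ctsd, Gla, Lamp1 and Atp6v1a, which were called for diet in both depots, and for Mcoln1, which was called in neither.
Ctsd: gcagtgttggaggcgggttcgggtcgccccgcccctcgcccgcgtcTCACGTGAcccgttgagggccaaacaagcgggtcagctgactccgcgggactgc
Gla: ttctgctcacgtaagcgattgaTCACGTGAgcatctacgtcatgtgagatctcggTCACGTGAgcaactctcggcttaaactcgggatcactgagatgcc
Lamp1: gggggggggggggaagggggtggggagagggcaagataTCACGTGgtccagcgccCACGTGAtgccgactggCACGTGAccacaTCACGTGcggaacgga
Atp6v1a: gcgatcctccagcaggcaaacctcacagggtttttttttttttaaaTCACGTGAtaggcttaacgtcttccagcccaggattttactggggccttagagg
Mcoln1: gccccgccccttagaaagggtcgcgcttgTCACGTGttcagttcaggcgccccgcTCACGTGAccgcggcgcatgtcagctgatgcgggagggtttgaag

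These windows lie at chr7:142387873-142387972 (Ctsd, minus strand), chrX:134601156-134601255 (Gla, minus strand), chr8:13159061-13159160 (Lamp1, plus strand), chr16:44139338-44139437 (Atp6v1a, minus strand), chr8:3500418-3500517 (Mcoln1, plus strand). The 11 genes with the letters held 8 that rose on HFD in eWAT (median log2 fold change 0.69), and the 23 genes with a window and no match held 16 that rose and 1 that fell (median 0.94). In the genotype comparison 7 of the 11 and 17 of the 23 fell. In iWAT 7 of the 11 and 14 of the 23 rose on HFD. Mcoln1 held 2 separate matches and Lamp1 held 4, and the former was not called for diet while the latter rose in both depots. A match describes the letters of the window, and no binding was measured. The starts used were those of RefSeq. By the GENCODE gene coordinates, the printed stretches of Ctsd and Atp6v1a lie within the gene, and that of Mcoln1 spans its start.

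The HFD-fed Acod1-/- mice were also set against wild type mice on ND. In eWAT 4 were higher and 3 lower than on ND, against 13.5% and 13.0% of all genes. The higher ones were Atp6v0d1, Ctsz, Ctsd and Atp6v0a1, and the lower ones Neu1, Ctsc and Gaa. Without the 2 libraries that held epididymis RNA, 1 was higher (Atp6v0d1) and 1 lower (Gaa), against 9.60% and 8.26% of all genes. In iWAT 10 were higher and 2 lower (Ctss and Ctsh), against 18.5% and 16.1% of all genes. Among the higher ones were Atp6v0d1, Atp6v0a1, Ctsk (1.47 ± 0.33, adjusted p = 0.00776) and Atp6v0d2 (2.45 ± 0.78, adjusted p = 0.0397).

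On ND 12 of the 40 genes were higher and 1, Tfeb, lower in eWAT than in iWAT, against 17.5% and 14.2% of all genes. The largest of these differences was that of Atp6v0d2 (3.07 ± 1.2, adjusted p = 0.0751). Without the 2 libraries that held epididymis RNA 8 were higher (14.7% of all genes), and Neu1 (0.28 ± 0.18, adjusted p = 0.295), Npc2 (0.50 ± 0.23, adjusted p = 0.137), Lamp1 (0.30 ± 0.15, adjusted p = 0.165) and Glb1 (0.35 ± 0.17, adjusted p = 0.166) no longer passed. In wild type mice on HFD 25 were higher in eWAT and 1 lower, against 10.8% and 7.75% of all genes, led by Atp6v0d2 (3.02 ± 0.93, adjusted p = 0.0359), Ctss (2.32 ± 0.51, adjusted p = 0.0052) and Lipa (1.68 ± 0.37, adjusted p = 0.00508). Without wild type HFD 1 of eWAT the number called fell from 26 to 17. Without the libraries that held epididymis RNA 29 were higher on HFD (12.1% of all genes), with Ctsl, Glb1, Man2b1 and Npc2 gained. The effect of diet differed between depots for 8 of the 40, with 7 larger in eWAT and 1 smaller, against 14.0% and 15% of all genes. The 7 were Ctsa, Ctss, Ctsz, Hexa, Npc1, Psap and Tfeb, and the exception was Smpd1. The call of Npc1 held in 17 of 33 alternatives and that of Psap in 24 of 33. Without the libraries that held epididymis RNA Npc1 was lost (0.65 ± 0.28, adjusted p = 0.102) and Ctsh (1.35 ± 0.40, adjusted p = 0.0201), Gusb and Atp6v1b2 were gained. The effect of genotype was not shown to differ between depots for any of the 40 (1 of all genes, or 0.00665%, was called), with 12 of the 40 at an unadjusted p under 0.05, against 1524 of 15034 genes (10.1%). DESeq2 called 1, Ctsa (0.432% of all genes lower), and without the 2 libraries that held epididymis RNA 5 were called, Ctsa, Lipa, Ctsk, Manba and Atp6v1a (1.83% of all genes lower).

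Genes of the same pathways outside the 40 were counted by list. Of all genes tested, 24.8% rose and 26.9% fell on HFD in eWAT, 9.13% rose and 10.8% fell by genotype there, and 25.9% rose and 24.2% fell on HFD in iWAT, and the smallest list counts lie near or below these shares. Of 22 other lysosomal hydrolases and their activators, 14 rose on HFD in eWAT and 1 fell, 15 fell in Acod1-/- mice, and 12 rose and 1 fell on HFD in iWAT. Grn, the progranulin precursor, changed by 1.49 ± 0.24 (adjusted p = 0.000673) on HFD and by -1.24 ± 0.22 (adjusted p = 0.011) with genotype in eWAT. Lgmn, an asparagine-specific protease, changed by 2.54 ± 0.45 (adjusted p = 0.00102) and -2.20 ± 0.40 (adjusted p = 0.011), and Ctso fell with HFD (-0.52 ± 0.13, adjusted p = 0.0064). Of 12 other pump subunits 8 rose and 1 fell on HFD in eWAT. Tcirg1, the a subunit form of osteoclasts and macrophages, rose by 1.94 ± 0.35 (adjusted p = 0.00126) and fell in Acod1-/- mice (-1.68 ± 0.32, adjusted p = 0.0113), while Atp6v0e2 went the other way (-0.76 ± 0.27, adjusted p = 0.0382 for diet and 1.05 ± 0.26, adjusted p = 0.0229 for genotype). By genotype 4 of the 12 fell and 1 rose, and 7 rose on HFD in iWAT.

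Of 11 other lysosomal membrane proteins 5 rose on HFD in eWAT, 4 fell in Acod1-/- eWAT, and 5 rose and 3 fell on HFD in iWAT. Laptm5, a membrane protein of blood cells, rose in eWAT (2.22 ± 0.42, adjusted p = 0.00155) and fell in iWAT (-1.25 ± 0.23, adjusted p = 0.00156), where lymphocyte markers fell too, and their part was not tested. Of 6 genes that sort enzymes to the lysosome 3 rose and 1 fell on HFD in eWAT, the latter being the sorting receptor gene Sort1 (-1.21 ± 0.15, adjusted p = 0.000235), which was higher in Acod1-/- mice (0.67 ± 0.14, adjusted p = 0.0143). By genotype 2 of the 6 fell and 1 rose, and 1 rose on HFD in iWAT, where 25.9% of all genes did.

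Of 11 genes of the Ragulator and Rag GTPase complexes, which tether mTORC1 to lysosomes, 9 rose and 1 fell on HFD in eWAT, 2 fell in Acod1-/- mice (10.8% of all genes), and 7 rose and 2 fell on HFD in iWAT. Rragd was lower in Acod1-/- eWAT (-2.19 ± 0.74, adjusted p = 0.0697) and on HFD in iWAT (-3.13 ± 0.87, adjusted p = 0.0147), and Flcn, whose product acts on the Rag GTPases, fell on HFD in iWAT (-0.92 ± 0.17, adjusted p = 0.00178). Of 10 autophagy genes 4 rose and 1 fell on HFD in eWAT, 1 fell by genotype, near the 10.8% of all genes, and 6 rose on HFD in iWAT. Both cystatins listed, inhibitors of cathepsins, rose on HFD in eWAT and iWAT, with 2.05 ± 0.27 (adjusted p = 0.000303) for Cstb in eWAT, and Cstb fell in Acod1-/- eWAT (-1.12 ± 0.25, adjusted p = 0.0149). For genotype in iWAT none of the genes of these lists was called by edgeR.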

How the data were processed

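The authors made directional mRNA libraries, trimmed reads with cutadapt, filtered contaminants, aligned to mm10 with STAR and deposited, per library, read counts per gene, uncounted reads in 5 classes and FPKM values. FPKM followed from counts and lengths to within 0.0005 and was not used further. The counting program and its strand setting were not given in the sources used here. Gene IDs were joined to symbols for 54723 of 54752 genes. Depth was 31.41 to 52.34 M counted reads per library.

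Counts were fitted with edgeR 4.0.16 (R 4.3.3, with limma 3.58.1), per depot with 3 groups, after TMM normalization and a minimum mean of 1 CPM. The quasi-likelihood test was adjusted by Benjamini-Hochberg over all genes and called at an adjusted p under 0.1. Depot differences and interactions came from 1 fit of all 25 libraries. Printed CPM values are per TMM library size over all 25 libraries, given in the order of the library numbers. Python 3.11.15 wrote the tables and drew the figures (pandas 2.3.3, numpy 2.4.6, matplotlib 3.10.9). Per-length levels divide by the deposited cDNA length. The fits were tested on simulated data.

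The members, the class of each, the lists and the tests were chosen with earlier results of these data known. Values in every library are given for the 6 macrophage-enriched genes, 14 listed genes and, per diet or genotype comparison, the 3 with the smallest adjusted p, 24 genes in all. Alternatives were DESeq2 1.42.0 (Wald test and size factors), other filters, an adjusted p under 0.05, only the groups compared, the series as a term, the first series alone, a block for the library number and each library left out. Leaving out both epididymis-bearing libraries was added after the data were seen. The labels do not say whether a mouse gave both depots.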

Additional observations from a re-analysis of the deposited data

Results flagged for a closer look

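Of 96 tests for a library apart from its group of 4 or 5, 11 were positive, and chance gives about 5%. The tests are of 24 genes in the same libraries and are not independent, so the 11 cannot be judged against that share. In eWAT of Acod1-/- mice on HFD, the test was positive for library 5 for 6 genes, each time as the highest. This library held 1052 CPM of epididymis markers and the most macrophage marker RNA of its group (1549 CPM). It was at 2999 CPM for Ctsb (next 2013), 259 CPM for Ctss (next 72.4), 206 CPM for Lipa (next 72.6), 230 CPM for Atp6v0a1 (next 145), 83.0 CPM for Atp6v0d2 (next 9.63) and 178 CPM for Atp6v1a (next 107). Without a positive test, library 5 was also the highest of its group for Ctsa, Ctsd, Ctsk, Ctsl, Ctsz, Gusb, Hexa, Npc2, Psap, Lamp1 and Mitf. For Acp5 and Mcoln1 it was the lowest, again without a positive test. Acod1-/- HFD library 2 was the lowest of that group for Neu1, at 28.6 CPM (next 37.6). Library 5 is also the only one of that group in the second sequencing series. The wild type HFD library of eWAT in that series, number 5, held 1547 CPM of macrophage markers. It was at 282 CPM for Ctss, 167 CPM for Lipa and 84.2 CPM for Atp6v0d2. With 1 library of each genotype, the genotype difference was not tested within that series.

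In eWAT of wild type mice on HFD, the test was positive for library 1, with the most macrophage marker RNA of all (5144 CPM). It was positive for Ctsk at 484 CPM (next 221) and for Ctsl at 1690 CPM (next 1227). Without a positive test, library 1 was also the highest of its group for Ctsa, Ctsb, Ctsd, Ctss, Ctsz, Gusb, Hexa, Neu1, Lipa, Psap, Mcoln1, Atp6v0a1, Atp6v0d2, Atp6v1a, Tfeb, Tfe3 and Mitf. For Npc2 and Acp5 it was the lowest, also without a positive test. The ND library 2 of eWAT was the lowest for Atp6v0d1, at 91.9 CPM (next 104). In iWAT, wild type HFD library 5 was the lowest for Ctsb, at 2070 CPM (next 2689), and it is the only one of its group in the second sequencing series.

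The diet effect differed between depots by the interaction test for 8 of the 40 genes, a smaller share than among all genes (14.0% larger in eWAT and 15% smaller). On the log2 scale it was larger in eWAT by 1.23 for Ctsa (adjusted p = 0.00287), 3.35 for Ctss (adjusted p = 0.00394), 1.16 for Ctsz (adjusted p = 0.00311), 0.90 for Hexa (adjusted p = 0.0415), 0.65 for Npc1 (adjusted p = 0.0877), 0.82 for Psap (adjusted p = 0.0699) and 1.51 for Tfeb (adjusted p = 0.00034). For Smpd1 the difference was -0.89 (adjusted p = 0.00909). The call of Npc1 held in 17 of 33 alternatives (13 of 25 with a library left out) and that of Psap in 24 of 33. For Ctss and Tfeb, the lymphocyte markers of ND iWAT (414 to 639 CPM for B cells) moved with the result, and their part was not tested.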

How the results depend on the processing

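The 28 genes higher on HFD and the 29 lower by genotype in eWAT, and the 25 higher on HFD in iWAT, stayed within 1.5 times under every alternative run, with 25 to 30, 20 to 32 and 20 to 27 when single libraries were left out. The other counts moved. The 1 gene lower on HFD in eWAT (Neu1) became 0 at an adjusted p under 0.05, without a filter, with the series term, with only the groups compared and without the epididymis-bearing libraries, and was 0 to 1 with single libraries left out. The 0 genes higher by genotype in eWAT became 1 in the first series alone. For Acod1-/- HFD against ND in eWAT, the 4 higher became 2 with the series term and 1 without the epididymis-bearing libraries (1 to 6 with single libraries left out), and the 3 lower became 1 at an adjusted p under 0.05, 1 without a filter, 0 with the series term and 1 without the epididymis-bearing libraries (0 to 4). Without ND 2 alone these counts were 1 and 0.

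In iWAT, the 0 genes lower on HFD became 2 with 1 CPM required in every library, 1 with DESeq2's size factors, 1 by its Wald test, 1 with the series term and 2 with only the groups compared (0 to 2 with single libraries left out). The 0 lower by genotype became 1 with 1 CPM in every library, 13 by DESeq2's Wald test and 19 in the first series alone (0 to 16, and 0 to 1 higher). For Acod1-/- HFD against ND in iWAT the 10 higher became 6 with the series term (6 to 13, the 6 without ND 2) and the 2 lower ranged from 2 to 6 (6 without Acod1-/- HFD 3). The 13 called between depots on ND ranged from 6 to 15 (6 without iWAT ND 2 and 7 without iWAT ND 3), the 26 on HFD from 17 to 29 (17 without eWAT wild type HFD 1), and the 8 diet interactions from 6 to 12. The 0 genotype interactions became 1 by DESeq2's Wald test and 5 without the epididymis-bearing libraries (0 to 3, with 3 without eWAT Acod1-/- HFD 5 and 2 without iWAT Acod1-/- HFD 3). With Ctsk and Ctsz taken as ubiquitous, the macrophage-enriched genes called were 2 for diet and 2 for genotype in eWAT and 1 for diet in iWAT, in place of 4, 4 and 3. The causes were not tested.

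Same-numbered libraries of different groups deviated together (correlation over 0.1) in 9 of 13 pairs within eWAT (median 0.157), 3 of 9 within iWAT (0.02) and 5 of 11 across depots (0.081), against 12 of 52 (-0.021), 8 of 30 (-0.011) and 7 of 41 (-0.048) pairs of different numbers. The highest value in eWAT, 0.53, was between the 2 libraries that held epididymis RNA. Same-numbered pairs thus exceeded 0.1 more often than others within eWAT and across depots. The labels name no shared animal or day, so the numbers were not taken to pair the libraries. The main fits treat all libraries as independent, and their SE and p do not allow for such a link. With a replicate block for the library number, the counts were 28 higher and 0 lower for diet and 0 higher and 25 lower for genotype in eWAT, 2 higher and 1 lower for Acod1-/- HFD against ND there, and 22 higher and 0 lower for diet, 0 for genotype and 11 higher and 2 lower for Acod1-/- HFD against ND in iWAT. The lowest count of a member in a library was 13, for Atp6v0d2, which went down to 0.296 CPM in ND iWAT. Atp6v0d2 dropped out of the fits that required 1 CPM in every library.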

Other observations

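Markers of tissue next to the depots stood out in single iWAT libraries. Skeletal muscle markers (Acta1, Ckm, Myh4 and Tnnt3) summed to 6801 CPM in ND 1, against at most 399 CPM in the other iWAT libraries, and markers of skin and mammary epithelium (Krt5, Krt14, Krt8 and Epcam) summed to 526 CPM in Acod1-/- HFD 2, against at most 51.9 CPM in the others.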
